A study of Mus musculus with 36 samples.

Results

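Neat1 and Malat1 are long noncoding RNAs that stay in the nucleus, and Sfpq, Nono and Pspc1 encode RNA-binding proteins that assemble on Neat1 to form paraspeckles. These 5 genes were taken by their symbols from 22979 genes listed in at least 1 of 6 tables of labelled and unlabelled RNA. The rule used no measured value, but the group was chosen with earlier results of these data known. All 5 were found in all 6 tables, as were 18419 genes in total, and all 5 passed the filter on low counts in each cell line. The data showed a Neat1 of high labelled share, which fell fast during a chase, beside a far more abundant Malat1 whose labelled share changed little, and a higher level of both RNAs when ZCCHC8 was depleted.

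The libraries were SLAM-seq libraries, in which RNA made during a pulse carries 4-thiouridine (4sU) and is read after alkylation as T-to-C conversions. Female XX mouse embryonic stem cells of a Cast x 129S background were used, in which Xist, on the 129S allele and carrying Bgl stem loops, was driven by a doxycycline-inducible TetOn promoter. Each of 3 lines was 1 clone in which a nuclear protein carried the FKBP12 F36V degron tag: METTL3 (clone 12D), the catalytic subunit of the m6A RNA methyltransferase, YTHDC1 (clone Y12H), the nuclear reader of m6A, and ZCCHC8 (clone Z12H), the scaffold of the nuclear exosome targeting complex that directs unprocessed nuclear RNA to decay. The dTAG arm received 100 nM dTAG-13, which brings about loss of the tagged protein, from 2 h before doxycycline, and the Ctrl arm did not. Both arms were given 1 µg/ml doxycycline for 20 h, then 500 µM 4sU with doxycycline for 4 h, then 50 mM uridine, and were collected after 0, 90 and 180 min of chase. With 2 replicates of each line, arm and time this gave 36 libraries, 12 for each line, and the Ctrl arm of each line was the control for that line alone. The study describes its RNA-seq replicates in general as repeats of a clone or as separate clones, with the wells of a replicate taken from a single batch of cells. The p-values of fits to a single line thus measure the spread between libraries of 1 clone. In the count fits the chase times of a replicate enter as separate libraries, so this spread is not that between repeats alone. The differences between lines, the fit of label at 0 min and the tests between pairs of genes join libraries of 3 clones. The tests between pairs of genes count the 2 tables of each clone as separate. In a difference between lines, the clone and the depleted protein cannot be told apart.

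The libraries held 5274684 to 18652000 reads assigned to genes, and those of the ZCCHC8 line were the least deep at 5274684 to 10257631. The 10 embryonic stem cell markers examined were present in every library, with Pou5f1 at 355 to 935 CPM (read counts scaled to a common library total) and a summed level of 2871 to 3949 CPM. The cells had been grown on mitotically inactive feeder fibroblasts, most of which were removed by preplating. The summed level of 13 fibroblast markers was 42.5 to 117 CPM. Col5a1 (12.37 to 47.95 CPM) and Fbn1 (16.67 to 40.98 CPM) had the highest levels and were present in every library. Lum was at 0 in 22 libraries, Postn in 7, Lox and Col3a1 in 4 each and Acta2 in 2. The degron acts on the protein, so the mRNA of the tagged gene does not check the depletion. In the line of its own degron, Mettl3 mRNA was at 54.2 to 62.0 CPM in Ctrl and 52.6 to 64.7 in dTAG, Ythdc1 mRNA at 143 to 312 and 313 to 441, and Zcchc8 mRNA at 27.8 to 44.9 and 33.2 to 45.8.

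Paraspeckles are nuclear bodies built on the long isoform of Neat1, along which SFPQ, NONO and PSPC1, a family of related DNA- and RNA-binding proteins, are arranged. The short Neat1 isoform shares its 5′ end and is polyadenylated, whereas the long isoform and Malat1, a component of nuclear speckles, end without a poly(A) tail. Their 3′ ends are instead cut by RNase P and kept by a triple helix between an A-rich tract and 2 U-rich stretches. Neat1 is known to be short-lived for a nuclear RNA and Malat1 to be stable and very abundant.

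In the mm10 build with GENCODE M21 annotation, Neat1 (ENSMUSG00000092274) lies on the minus strand of chromosome 19 from 5824708 to 5845478. Its long transcript is a single exon of 20771 bases, and a 2-exon transcript of 3004 bases spans 5842307 to 5845476 at the 5′ end. The deposited counts are per gene, so that the short and long isoforms could not be told apart. Malat1 (ENSMUSG00000092341) lies on the same strand of chromosome 19 from 5795690 to 5802672, and its longest transcript is a single exon of 6983 bases. Sfpq (ENSMUSG00000028820) is on the plus strand of chromosome 4 from 127021324 to 127037013, Nono (ENSMUSG00000031311) on the plus strand of the X chromosome from 101429318 to 101448591, and Pspc1 (ENSMUSG00000021938) on the minus strand of chromosome 14 from 56720710 to 56778316. Genes annotated within or across these loci (Gm12940 with Sfpq, Gm27694 and the antisense Gm37376 with Malat1, Gm27533, Gm27505 and Gm28006 with Neat1) were in none of the 6 tables. Use of strand in the counting is not given in the sources used here, so reads of Malat1 and of an antisense partner cannot be told apart.

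The 3′ elements that protect both noncoding RNAs are shown because they set Neat1 and Malat1 apart from the mRNAs of the group. They are printed 5′ to 3′ in the sense direction from the GENCODE M21 transcripts, with the runs of at least 11 bases that the last 100 bases of Neat1 share with the last 400 bases of Malat1 in capitals: the first U-rich stretch, the second U-rich stretch and the A-rich tract.
Neat1, chr19:5824708-5824797, minus strand: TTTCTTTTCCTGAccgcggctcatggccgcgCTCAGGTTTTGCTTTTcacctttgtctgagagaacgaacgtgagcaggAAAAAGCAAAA
Malat1, chr19:5795982-5796065, minus strand: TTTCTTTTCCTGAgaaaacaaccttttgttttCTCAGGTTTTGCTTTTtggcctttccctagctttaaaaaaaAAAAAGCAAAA
The Neat1 element is 90 bases long and ends with the annotated transcript, while 292 bases of annotated transcript follow the 84-base element of Malat1. The U-rich stretches are 18 bases apart in Neat1 and 19 in Malat1, and the second stretch and the A-rich tract are 32 and 25 bases apart. The letters were taken from these 2 sequences, so that their match is no finding. Among the longest transcripts of 22925 genes in the tables, searched on the transcribed strand, the first stretch (TTTCTTTTCCTGA) occurred in 13 transcripts (0.0567%), the second (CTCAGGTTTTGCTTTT) in 2 (0.00872%) and the A-rich tract (AAAAAGCAAAA) in 218 (0.951%). All 3 in this order occurred in Neat1 and Malat1 (0.00872%).

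METTL3 methylates adenosines within short motifs of which GGACT is the most used. The longest Neat1 transcript held 23 copies of GGACT, or 1.11 per kb, and that of Malat1 held 9, or 1.29 per kb, near the median of 1.02 per kb over all transcripts. Nono stood at 1.95 per kb with 5 copies, higher than 86.9% of transcripts, Sfpq at 0.866 per kb with 3, and Pspc1 at 0.243 per kb with 1. A copy of the motif is not a methylated site. The thymidines that 4sU can mark made up 30.0% of the Neat1, 28.9% of the Malat1, 24.4% of the Sfpq, 24.1% of the Nono and 30.3% of the Pspc1 transcript, with a median of 25.0% over all transcripts.

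On the scale of CPM per kb of the longest transcript, Malat1 had the highest level of the 5 genes in the 18 Ctrl libraries, at 208 to 492 with a median of 395. Nono followed at 103 to 244 with a median of 182, so that its highest libraries passed the lowest of Malat1, and Sfpq at 129 to 178 with a median of 161, within the range of Nono. Pspc1 was at 17.4 to 27.6 with a median of 19.6. Neat1 was the lowest at 2.07 to 12.5 with a median of 5.53, and its range overlapped that of no other member. A level per kb of the long Neat1 transcript is a lower value than one per kb of the short isoform would be. In reads, Neat1 was covered by 247 to 3410 per library, Pspc1 by 471 to 1847, Nono by 1891 to 6996, Sfpq by 3089 to 10256 and Malat1 by 15911 to 53202. In these bulk libraries a lower level in fewer cells and less RNA in each cell cannot be told apart.

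**Figure D1:**
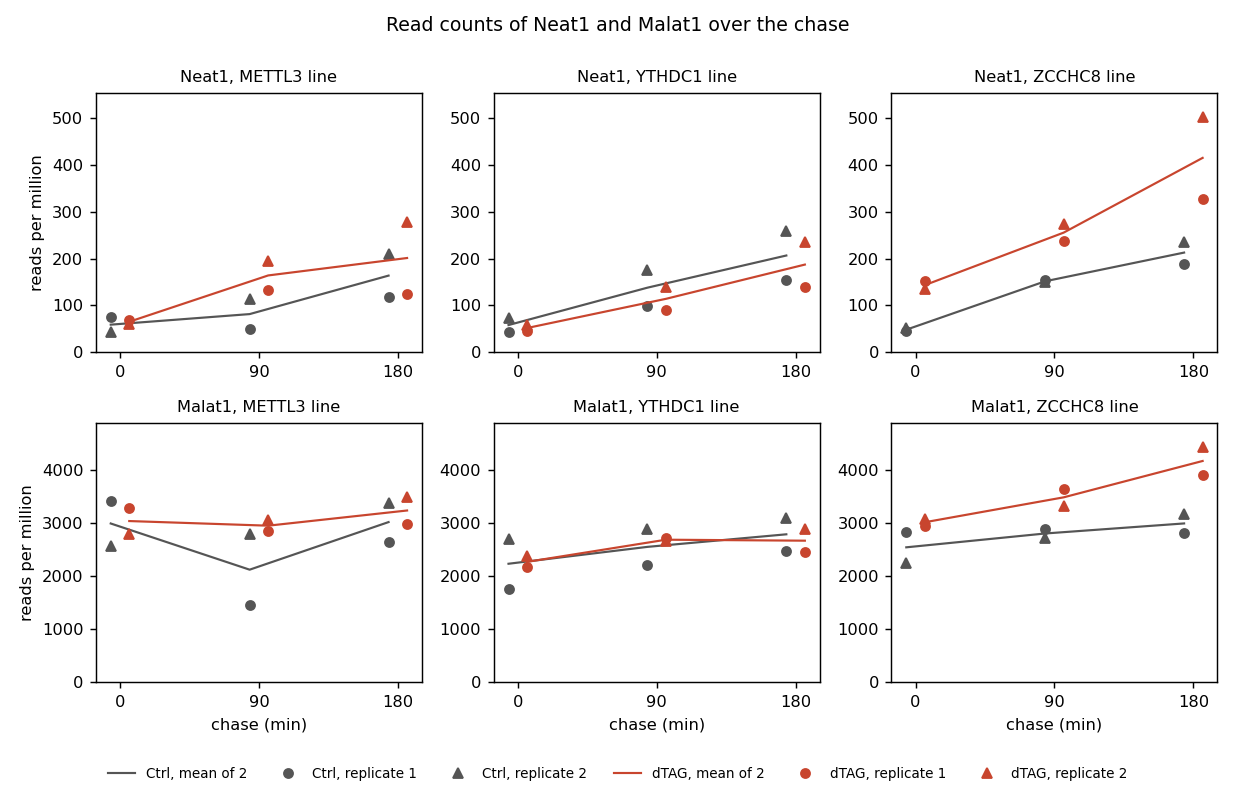
Neat1 and Malat1 levels (CPM, linear axis) in each of the 36 libraries, by line, arm and chase time in min, with 1 point for each library. Neat1 rose over the chase in every line, and the dTAG libraries of the ZCCHC8 line lay above the Ctrl libraries of the same time for both RNAs.

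The first question was how far depletion of each protein changed the level of these RNAs. Upon depletion of ZCCHC8, Neat1 was about 2.13-fold higher and Malat1 modestly higher, while Nono was lower. For Neat1, the Ctrl libraries of the ZCCHC8 line had 44.2 and 51.6 CPM at 0 min, 154 and 149 at 90 min, and 189 and 236 at 180 min, in the order of replicates 1 and 2. The dTAG libraries had 152 and 134 CPM at 0 min, 238 and 273 at 90 min, and 327 and 503 at 180 min. The arms did not overlap at any of the 3 times, and the dTAG library was higher in 6 of 6 pairs of the same number and time, by 1.55- to 3.43-fold with a geometric mean of 2.13-fold. The fitted log2 fold change was 1.06 (edgeR, SE 0.149, adjusted p = 0.000452), and it kept its direction and stayed past the threshold of 0.05 under every alternative run, at 0.77 to 1.55. The largest value was that of the 0 min libraries alone, 1.55 (edgeR adjusted p = 3.40e-12), and those of 90 and 180 min alone gave 0.77 (1.84e-06) and 0.97 (0.012). The change of the dTAG response per hour of chase was called for 0 of the 5 genes in each line (edgeR, 0 of 5 also at an unadjusted p under 0.05). It was called for 0% of all genes tested in each line, so a steady response cannot be read from it.

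Malat1 in the ZCCHC8 line had 2847 and 2249 CPM in Ctrl at 0 min, 2893 and 2726 at 90 min, and 2817 and 3182 at 180 min. With dTAG it had 2953 and 3091 CPM at 0 min, 3649 and 3337 at 90 min, and 3908 and 4452 at 180 min. The dTAG libraries were again above the Ctrl libraries of the same time without overlap, and higher in 6 of 6 pairs with a geometric mean of 1.27-fold. The log2 fold change was 0.34 (edgeR, SE 0.0655, adjusted p = 0.000296), but with 2 libraries against 2 the 0 min (0.22, adjusted p = 0.271) and 90 min (0.33, adjusted p = 0.0597) libraries alone did not pass. In all, 4 of the 5 genes passed in the ZCCHC8 line, beside 39.6% of all 14227 genes tested (20.1% higher and 19.5% lower), so that a call alone set no member apart.

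Among the genes for paraspeckle proteins in the ZCCHC8 line, Nono had 620 and 625 CPM in Ctrl at 0 min, 548 and 600 at 90 min, and 447 and 483 at 180 min. With dTAG it had 470 and 550, 474 and 510, and 387 and 435 CPM. Nono was lower in 6 of 6 pairs, with a log2 fold change of -0.23 (edgeR, SE 0.0481, adjusted p = 0.000461). Nono is X-linked, and Xist, which silences genes in cis on the X chromosome, was itself higher in this arm (log2 fold change 0.78). The median log2 fold change of the 510 X-linked genes tested other than Xist was -0.222 in this line, close to that of Nono, and 45.5% of them were called lower. The part of Xist in the level of Nono was not tested.

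Pspc1 in the ZCCHC8 line had 96.3 and 80.6 CPM in Ctrl at 0 min, 91.2 and 74.5 at 90 min, and 78.9 and 71.7 at 180 min, and with dTAG 101 and 94.7, 89.3 and 93.6, and 92.2 and 80.4. It was higher in 5 of 6 pairs, at a log2 fold change of 0.16 (edgeR, SE 0.0632, adjusted p = 0.0449). This call was lost with DESeq2 (adjusted p = 0.168), with other size factors (0.0876), without the filter on low counts (0.0747), with the chase libraries summed (0.164), and without replicate 2 (0.08, adjusted p = 0.471). Sfpq was higher in 5 of 6 pairs by a geometric mean of 1.07-fold and did not pass (log2 fold change 0.09, SE 0.0546, edgeR adjusted p = 0.19). With the replicate number as a block it passed narrowly (edgeR adjusted p = 0.04996).

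In the METTL3 line none of the 5 genes passed in the fit without a block (edgeR, 1 of 5 at an unadjusted p under 0.05, and 0 of 5 with DESeq2), beside 19.9% of 14658 genes tested (11.2% higher and 8.73% lower). Neat1 in Ctrl was at 74.3 and 43.0 CPM at 0 min, 49.6 and 113 at 90 min, and 117 and 210 at 180 min, and in dTAG at 68.7 and 61.1, 132 and 195, and 124 and 278. The arms overlapped at 0 and 180 min, but not at 90 min, and dTAG was higher in 5 of 6 pairs with a geometric mean of 1.43-fold. Its log2 fold change was 0.46 (edgeR, SE 0.272, adjusted p = 0.268). Replicate 2 lay below replicate 1 in Ctrl at 0 min and above it at 90 and 180 min. With replicate 2 or replicate 1 alone the values were 0.55 and 0.47, from fits in which the chase times stand as the only repeats. Without the Ctrl library of replicate 1 at 90 min, which had the lowest Malat1 level, Neat1 was at 0.28 (edgeR adjusted p = 0.453).

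Malat1 in the METTL3 line had 3432 and 2565 CPM in Ctrl at 0 min, 1455 and 2796 at 90 min, and 2657 and 3393 at 180 min, and in dTAG 3292 and 2797, 2852 and 3062, and 2993 and 3495. The arms overlapped at 0 and 180 min, and the log2 fold change of 0.18 (SE 0.162) did not pass (edgeR adjusted p = 0.476). It was 0.06 without the Ctrl library of replicate 1 at 90 min, and 0.37 without replicate 2. Nono had 406 and 548 CPM in Ctrl at 0 min, 316 and 488 at 90 min, and 263 and 392 at 180 min, against 288 and 444, 234 and 394, and 183 and 326 with dTAG.

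Replicate 2 of Nono was above replicate 1 at every time and arm of the METTL3 line, and dTAG was lower within each replicate and time, in 6 of 6 pairs. Its log2 fold change of -0.39 (edgeR, SE 0.178, adjusted p = 0.148) was -0.41 with the replicate number as a block (edgeR, SE 0.0699, adjusted p = 7.46e-05, beside 48.2% of genes called with it). The median of the 547 X-linked genes tested in this line other than Xist, Nono among them, was -0.0395. Sfpq was lower in 6 of 6 pairs, by a geometric mean of 0.902-fold, without passing (log2 fold change -0.16, SE 0.103, edgeR adjusted p = 0.308), and Pspc1 was higher in 2 of 6 pairs (-0.04, adjusted p = 0.808).

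In the YTHDC1 line 0 of the 5 genes passed in the fit without a block (edgeR, 1 of 5 at an unadjusted p under 0.05, and 1 of 5, Pspc1, with DESeq2), beside 5.1% of 14442 genes tested (2.41% higher and 2.69% lower). Neat1 in Ctrl was at 43.2 and 72.4 CPM at 0 min, 99.4 and 176 at 90 min, and 153 and 259 at 180 min, and in dTAG at 44.9 and 58.0, 89.5 and 138, and 139 and 235. The arms overlapped at each time, and dTAG was higher in 1 of 6 pairs. The log2 fold change of -0.22 (edgeR, SE 0.181, adjusted p = 0.612) was -0.21 with the replicate block, which passed (edgeR, SE 0.0521, adjusted p = 0.00541, beside 26.9% of genes called with it).

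Malat1 in the YTHDC1 line was at 1763 and 2712 CPM in Ctrl at 0 min, 2222 and 2891 at 90 min, and 2484 and 3104 at 180 min, against 2169 and 2377, 2715 and 2669, and 2453 and 2894 with dTAG. The arms overlapped, with a log2 fold change of -0.01 (edgeR adjusted p = 0.983). Pspc1 was higher in 6 of 6 pairs by a geometric mean of 1.17-fold, which passed with the block (log2 fold change 0.19, SE 0.0493, edgeR adjusted p = 0.00638) and not without it (0.19, SE 0.0617, adjusted p = 0.108). Nono was higher in 3 of 6 pairs (log2 fold change -0.03, edgeR adjusted p = 0.946) and Sfpq in 0 of 6 (-0.12, adjusted p = 0.491).

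**Figure D2:**
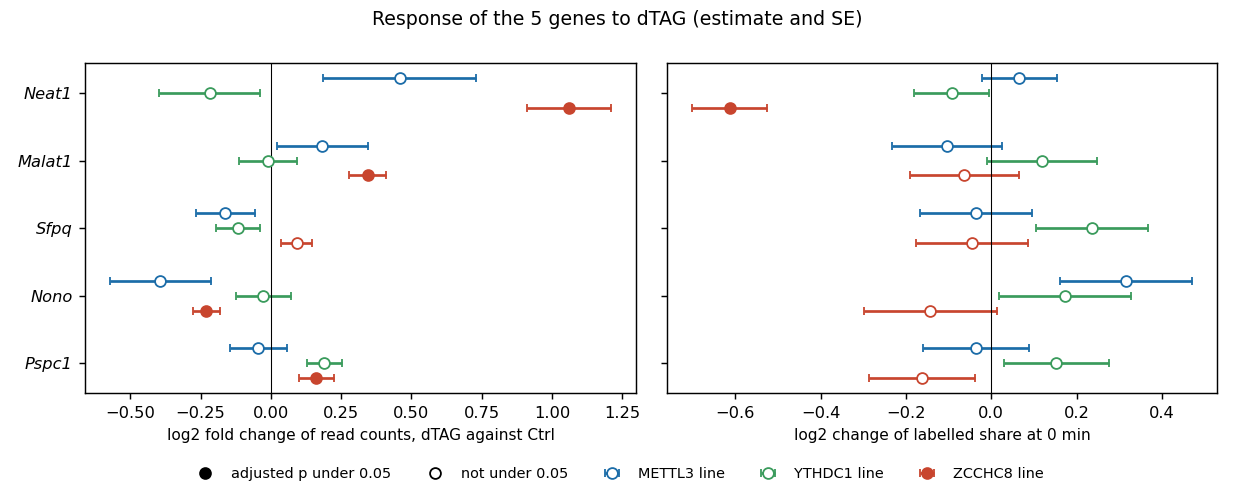
The dTAG-against-Ctrl log2 fold change of each of the 5 genes in the METTL3, YTHDC1 and ZCCHC8 lines, with bars of 1 SE from the edgeR fit of the 12 libraries of a line. Neat1 in the ZCCHC8 line, at 1.06, lies farthest from 0.

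Whether the responses differed between lines was tested over all 36 libraries. The Neat1 response was larger in the ZCCHC8 line than in the YTHDC1 line by 1.25 on the log2 scale (edgeR, SE 0.31, adjusted p = 0.0059, beside 14.3% of 15346 genes called), although this was lost without replicate 2 (1.14, adjusted p = 0.184). The difference did not pass for ZCCHC8 against METTL3 (0.59, edgeR adjusted p = 0.185) or METTL3 against YTHDC1 (0.66, adjusted p = 0.136), beside 23.4% and 20.2% of genes. The Malat1 response differed by 0.30 between the ZCCHC8 and YTHDC1 lines (edgeR adjusted p = 0.285) and was not called in any pair of lines. With the replicate block the response of Nono was lower in the METTL3 than in the YTHDC1 line (-0.40, edgeR adjusted p = 7.49e-06) and in the ZCCHC8 than in the YTHDC1 line (-0.26, 0.00256). With the block that of Pspc1 was lower in the METTL3 than in the YTHDC1 line (-0.26, 0.0106), and that of Sfpq was higher in the ZCCHC8 than in the METTL3 line (0.22, 0.0164). The block raised the share of all genes called to 42.2% for METTL3 against YTHDC1, 32.0% for ZCCHC8 against YTHDC1 and 43.1% for ZCCHC8 against METTL3.

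Neat1 and Malat1 are read in the same libraries, so their ratio does not depend on the library size. In the ZCCHC8 line Neat1 reads amounted to 1.89%, 5.39% and 7.06% of Malat1 reads in Ctrl at 0, 90 and 180 min, and to 4.73%, 7.30% and 9.72% with dTAG, as geometric means of 2 libraries. The ratio was higher with dTAG in 6 of 6 pairs, by 0.74 on the log2 scale. With the chase times pooled the spread over the chase was wide, and the exact permutation test of 6 against 6 libraries gave p = 0.13, or 0.39 adjusted over the 3 lines. The exact sign-flip test within pairs of the same number and time gave p = 0.03125, the smallest it can give, or 0.0469 adjusted. It counts the pairs of different chase times in a replicate as separate, although they share a batch of cells. In the YTHDC1 line the ratio was lower with dTAG in 6 of 6 pairs, by -0.20 on the log2 scale (exact permutation p = 0.643, and 0.03125 within pairs, 0.0469 adjusted), and in the METTL3 line it was higher by 0.28 (exact permutation p = 0.513, and 0.125 within pairs).

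The second question was how much of each RNA was new at the end of the pulse and how fast that label was lost. The share of labelled RNA (the deposited new-to-total ratio, in percent) was far higher for Neat1 than for the other members. Neat1 in Ctrl at 0 min was labelled in 75.8% and 89.7% of its RNA (METTL3 line), 82.0% and 87.8% (YTHDC1 line) and 84.0% and 90.6% (ZCCHC8 line). Its share was higher than that of 73.7%, 76.8% and 82.1% of the genes with at least 100 reads in these lines. Over the 6 tables the Neat1 share was 2.53-fold that of Malat1, 2.496-fold that of Sfpq, 2.36-fold that of Pspc1 and 4.30-fold that of Nono, each in 6 of 6 tables (exact sign-flip p = 0.03125, the smallest possible, and 0.0446 adjusted over 10 pairs of genes).

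Malat1 carried label in 28.9% to 43.2% of its RNA over all 36 libraries, with medians of 33.9% at 0 min and 34.9% at 180 min. Sfpq had 28.6% to 44.7%, with medians of 33.5% and 39.3%, and Pspc1 had 28.1% to 52.0%, with medians of 36.8% and 43.0%. Nono was the least labelled at 0 min, at 15.0% to 29.5% with a median of 19.8%, and rose to 28.5% to 40.2% at 180 min. In Ctrl at 0 min the Nono share was below those of Malat1, Sfpq and Pspc1 by 1.70-, 1.72- and 1.83-fold in 6 of 6 tables (exact sign-flip adjusted p = 0.0446 each). Among Malat1, Sfpq and Pspc1 no pair passed (adjusted p = 0.104 to 0.562, exact). The deposited 90% credible intervals had a median width of 4.79 percentage points for Neat1 and 5.81 for Pspc1, against 0.985 for Malat1 and 2.26 for both Sfpq and Nono.

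**Figure D3:**
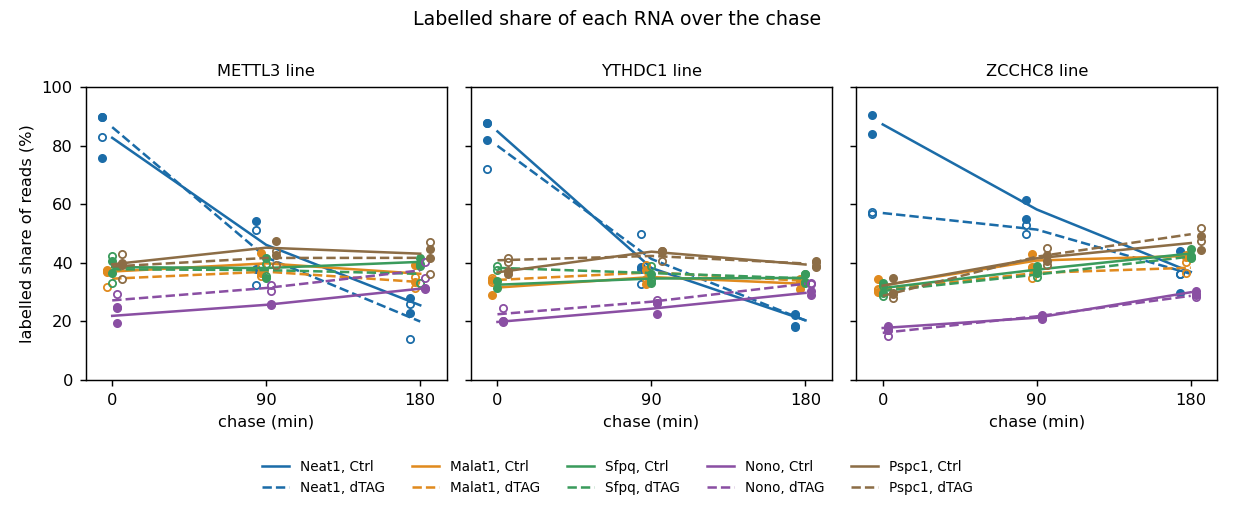
Share of labelled RNA (%) of each gene against chase time (min), with 1 panel for each line, points for libraries and lines through the means of 2 replicates (filled points and solid lines for Ctrl, open points and dashed lines for dTAG, points shifted sideways for visibility). Neat1 fell from above 75% in Ctrl, while Malat1, Sfpq and Pspc1 stayed between 28.1% and 52.0% and Nono rose.

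The Neat1 share fell steeply during the chase. For METTL3 it was at 38.0% and 54.3% in Ctrl at 90 min, and at 22.9% and 28.2% at 180 min. The YTHDC1 line had 37.9% and 38.6%, then 22.6% and 18.2%. In the ZCCHC8 line the share was 61.5% and 55.0% at 90 min and 44.0% and 29.8% at 180 min. At 180 min the share was 20.7% to 52.4% of its value at 0 min over the 6 tables, with a median of 30.8%. A log-linear fit gave a half-life of label of 116 ± 39.7 min (SD, n = 6 tables), with a range of 79.2 to 193 min. From T-to-C conversions in place of the ratio it was 78.0 min, within 1 SD.

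On the log2 scale the Ctrl share of Neat1 changed by -0.57, -0.69 and -0.42 per hour in the METTL3, YTHDC1 and ZCCHC8 lines (limma adjusted p = 1.71e-05, 2.72e-09 and 1.27e-06). A slope past the threshold was common, at 57.3%, 68.5% and 72.0% of genes. The rate of Neat1 was not: its share fell faster than that of nearly all genes, with 110 of 8105, 95 of 8757 and 88 of 7107 genes falling faster. The slope of Neat1 was below that of Malat1 by -0.61, of Sfpq by -0.63, of Pspc1 by -0.64 and of Nono by -0.77 per hour, in 6 of 6 tables (exact sign-flip adjusted p = 0.0391 each).

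The Nono share rose instead, to 128% to 173% of its 0 min value at 180 min, with slopes of 0.17, 0.19 and 0.25 per hour (limma adjusted p = 0.00481, 0.000168 and 1.45e-05). For ZCCHC8, Malat1 (0.13), Sfpq (0.15) and Pspc1 (0.18) also had rising shares (limma adjusted p = 0.00421, 0.000509 and 0.000493). In the other lines the slopes of these 3 genes lay between -0.01 and 0.04 and did not pass. The direction for these 3 depended on the measure: by T-to-C conversions their mean slopes over the 6 tables were -0.0999, -0.105 and -0.118, against 0.0468, 0.0699 and 0.0851 by the share, whereas Nono rose by both (0.103 by conversions). No half-life can be taken from a share that does not fall.

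A share can fall because labelled RNA is lost or because unlabelled RNA is added, and the level of Neat1 was not constant. Its read count was higher at 180 than at 0 min in each line, with log2 fold changes over both arms of 1.48 (METTL3; edgeR, SE 0.336, adjusted p = 0.0147), 1.77 (YTHDC1, SE 0.228, 0.000153) and 1.70 (ZCCHC8, SE 0.187, 3.8e-05). Called genes made up 15.8%, 40.5% and 59.7% in these comparisons, but few rose by more than Neat1: 23 of 9104, 9 of 9258 and 1 of 7657 genes with at least 100 reads at 0 min, in the same order of lines. In the METTL3 line the rise was 2.20 without replicate 1 and 0.77 without replicate 2.

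Split by the share, the unlabelled Neat1 CPM in Ctrl rose by 5.01- to 34.1-fold from 0 to 180 min, with a median of 19.7-fold. The labelled CPM at 180 min was 47.5% to 224% of its 0 min value, with a median of 124%, and fell in 3 of 6 tables and rose in 3. The fall of the share was thus measured together with a rise of unlabelled reads, and the labelled CPM gave no half-life. The half-life above is that of the share.

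**Figure D4:**
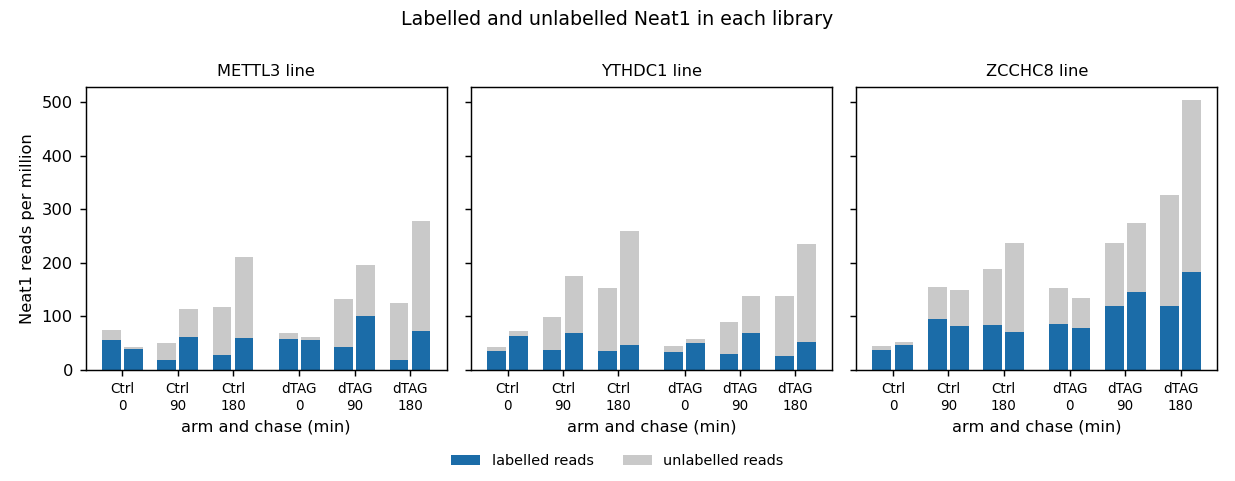
Labelled and unlabelled Neat1 CPM (total CPM times the share, and the remainder) in each library against chase time (min), by line and arm. Unlabelled Neat1 rose in every line, and at 0 min was 57.2 and 65.7 CPM in the dTAG libraries of the ZCCHC8 line against 4.86 and 7.05 in Ctrl.

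The rise over the chase was shared by other highly labelled genes. Across genes, the Ctrl share at 0 min and the change of count from 0 to 180 min had Spearman's rho of 0.627, 0.706 and 0.72 in the METTL3, YTHDC1 and ZCCHC8 lines, as a description of measures that both use the 0 min libraries. Genes with a share of at least 70% had a median log2 fold change of 0.34, 0.41 and 0.38, with 78.6%, 83.9% and 85.5% of them higher at 180 min, and the rest had medians of -0.21, -0.27 and -0.25. The authors kept reads with mismatches up to 0.06 of their length, and converted bases count as mismatches. The part of this limit in the levels at 0 min, or in the low Neat1 level there, was not tested.

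Nono fell over the chase, by -0.56 where YTHDC1 carried the degron (edgeR, SE 0.121, adjusted p = 0.00383) and by -0.46 for ZCCHC8 (SE 0.059, 4.3e-07). In the METTL3 line the value was -0.58 (adjusted p = 0.094), which passed with the replicate block (-0.59, 1.73e-05). The median of X-linked genes other than Xist was -0.172, -0.254 and -0.239 in the METTL3, YTHDC1 and ZCCHC8 lines. Malat1 rose by 0.26 in the ZCCHC8 line (edgeR, SE 0.0802, adjusted p = 0.00848, and 0.10 with adjusted p = 0.482 without replicate 2). Malat1 was at 0.00 for METTL3 (edgeR adjusted p = 0.994), and for YTHDC1 at 0.20 (0.218, and 0.0275 with the block). Pspc1 fell in 2 lines, METTL3 (-0.41, edgeR adjusted p = 0.0442, lost without replicate 2 at 0.174) and ZCCHC8 (-0.29, 0.00282), and Sfpq in 1, ZCCHC8 (-0.31, 0.000381). For YTHDC1, Sfpq (-0.18, 0.00669) and Pspc1 (-0.15, 0.0362) passed with the block and not without it. With the block 46.6% of genes were called over the chase for METTL3 and 66.3% for YTHDC1.

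The third question was whether depletion changed the label itself. The Neat1 share at 0 min in the ZCCHC8 line was 56.7% and 57.4% with dTAG, against 84.0% and 90.6% in Ctrl, with no overlap. The log2 change of -0.61 (SE 0.0881) passed over 7236 genes (limma adjusted p = 0.00408), of which 0.152% were called, or 2.1% with the replicate block. It passed on the log2 scale of the share and its posterior mean, but not on the logit scale (-2.42, adjusted p = 0.0826) or by T-to-C conversions (-0.78, adjusted p = 0.141). In CPM, labelled Neat1 at 0 min was 37.1 and 46.7 in Ctrl and 86.0 and 77.1 with dTAG, and unlabelled Neat1 was 7.05 and 4.86 in Ctrl and 65.7 and 57.2 with dTAG. Tested apart, with 0.0138% of genes called in each, neither the labelled (log2 change 0.97, limma adjusted p = 1) nor the unlabelled level (3.39, SE 0.579, adjusted p = 0.153) passed, in an alternative chosen after seeing the data. At 180 min unlabelled Neat1 was 106 and 166 CPM in Ctrl and 208 and 321 with dTAG.

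With dTAG in the METTL3 line the Neat1 share at 0 min was 82.9% and 89.8% (0.07, limma adjusted p = 0.638), beside 32% of genes called. In the YTHDC1 line it was 72.2% and 87.7% (-0.09, adjusted p = 0.82), beside 0.0553% of genes. Both overlapped Ctrl. The difference between the ZCCHC8 and METTL3 lines in the response of the share, also chosen after seeing the data, was -0.68 (limma, SE 0.125, adjusted p = 0.000787, beside 15.6% of genes). That between the ZCCHC8 and YTHDC1 lines was -0.52 (limma, SE 0.125, adjusted p = 0.262). The other 4 genes passed in none of the 3 lines.

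For the loss of label over the chase, dTAG against Ctrl, 0 of the 5 genes passed in any line (limma, with Neat1 in the ZCCHC8 line at an unadjusted p under 0.05), and the share of all genes called was 0.518% for METTL3, 0% for YTHDC1 and 0% for ZCCHC8. The Neat1 share in dTAG was 32.4% and 51.4% at 90 min and 14.0% and 26.0% at 180 min in the METTL3 line. For YTHDC1 it was 32.9% and 49.7%, then 18.4% and 22.3%, and for ZCCHC8 49.9% and 52.9%, then 36.2% and 36.3%. The slope of Neat1 in dTAG differed from that in Ctrl by -0.16 (METTL3), 0.03 (YTHDC1) and 0.20 per hour (ZCCHC8, SE 0.0697), with limma adjusted p of 0.976, 1 and 1. Without replicate 2 the difference in slope of Neat1 in the METTL3 line was -0.28, from a fit in which the chase times of a single replicate stand alone.

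**Figure D5:**
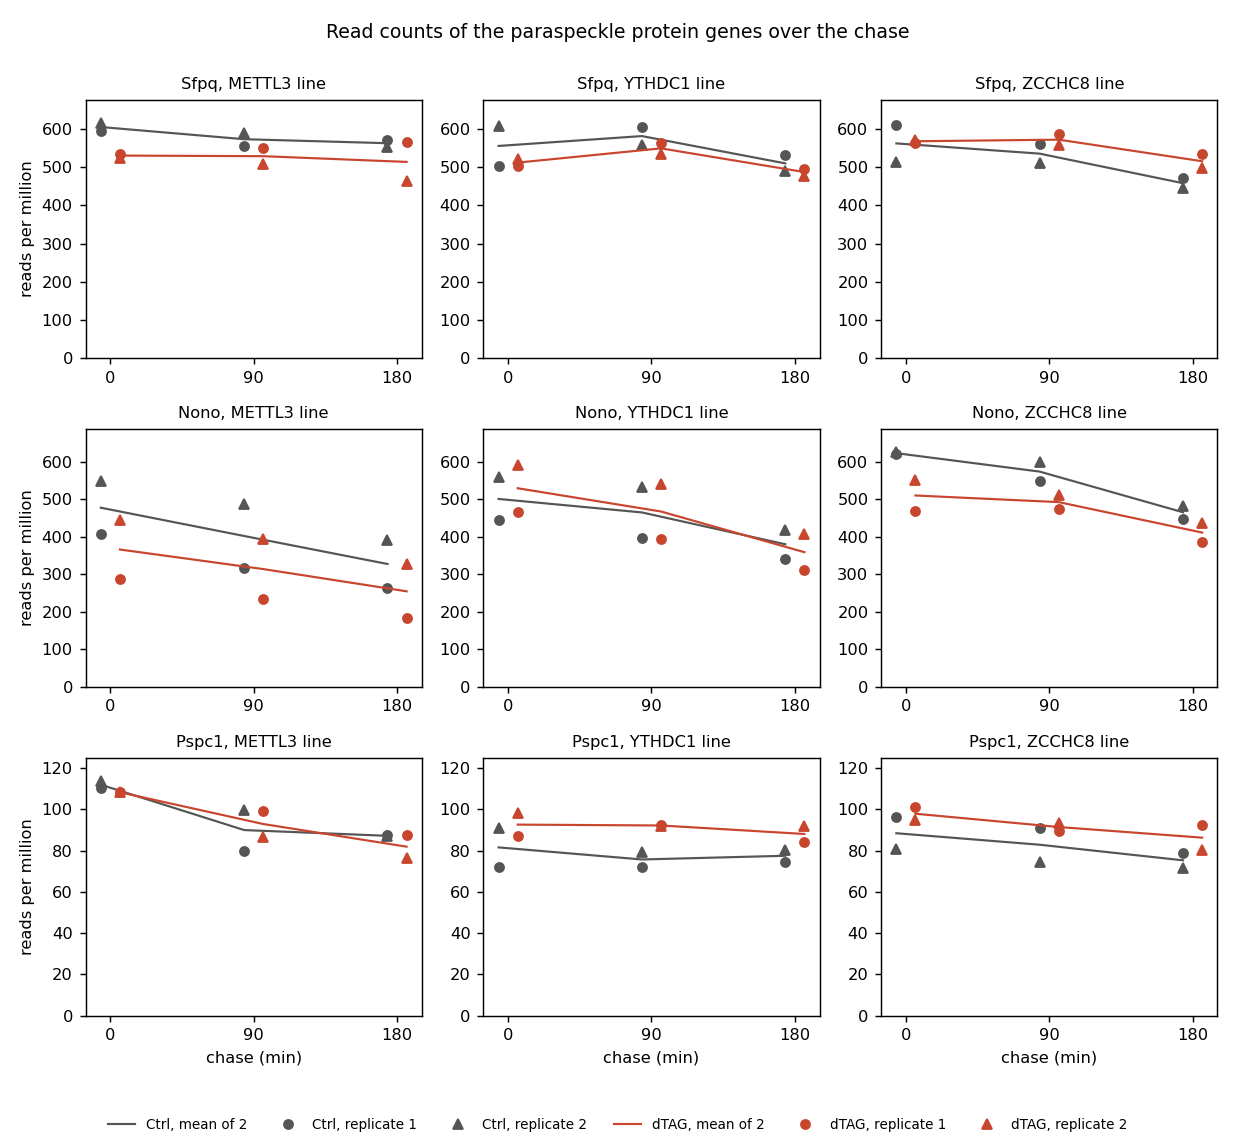
Levels of Sfpq, Nono and Pspc1 (CPM) in each library by line, arm and chase time (min). Nono fell over the chase and lay lower with dTAG in the ZCCHC8 line, and Sfpq stayed between 445 and 615 CPM in all 36 libraries.

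The genes for other proteins of paraspeckles moved in both directions. Of 35 tested of 36 other genes for paraspeckle proteins, 2 were higher and 3 lower with dTAG for METTL3 (median log2 fold change -0.09), 1 was higher for YTHDC1 (0.01), and 8 were higher and 3 lower for ZCCHC8 (0.01). Of all genes tested 19.9%, 5.1% and 39.6% were called in these comparisons, so the list held no larger share of called genes than the whole. With ZCCHC8 depleted the largest changes were those of Pced1a at 0.64, Rbm4b, a splicing regulator, at 0.55, Zc3h6 at -0.50 and Rbmx, an hnRNP protein, at 0.39. For METTL3, Toe1, a 3′ exonuclease of small nuclear RNAs, was at 0.83 (edgeR adjusted p = 0.0088), Hnrnpr at 0.68 (0.000769), Zc3h6 at -0.70 (0.0172) and Akap8l at -0.50 (0.0476). In the YTHDC1 line it was Rbmx that was higher, at 0.48 (0.0145). Of 11 genes for nuclear speckle proteins, Ddx39b, an RNA helicase of mRNA export, was the 1 called, lower, for METTL3 (-0.85) and for YTHDC1 (-0.38), and 2 were higher and 1 lower for ZCCHC8.

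Of 11 other nuclear long noncoding RNAs listed, 7 were tested in the ZCCHC8 line, and 5 of 7 were higher and 0 lower. Beside them, 20.1% of all genes were higher, and the medians were 0.51 for the list and 0.00 for all genes. The list was chosen with earlier results of these data known, so its count is a description only. The RNAs called higher were led by Jpx (2.01), an activator of Xist, and Miat (0.92), with Xist, whose promoter was induced here, at 0.78 and Meg3 at 0.51. In the METTL3 line 2 of 7 were higher, Jpx (1.22) and Xist (0.51), and Meg3 was lower (-1.03), and 0 of 6 passed for YTHDC1 (edgeR). For these counts and those of markers, the share of all genes called was 19.9% (METTL3), 5.1% (YTHDC1) and 39.6% (ZCCHC8). Of the fibroblast markers, 8 were tested, with Tagln lower for ZCCHC8 (-0.67), Acta2 higher for METTL3 (1.30) and 0 called for YTHDC1. The summed fibroblast level in the ZCCHC8 line was 82.5 to 114 CPM in Ctrl and 81.2 to 97.7 with dTAG, and the part of fibroblasts in the Neat1 level was not tested. The embryonic stem cell markers were summed at 3133 to 3775 CPM in Ctrl and 3523 to 3949 with dTAG. Of the 10 markers, 3 were higher by at most 0.24 and Tfcp2l1 was lower by -0.13, beside 20.1% of all genes higher and 19.5% lower. The part of these markers in the Neat1 level was not tested.

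Over the 36 libraries, with the mean of each line subtracted from log2 CPM, the genes whose level was most like that of Neat1 among 9101 compared were Gm20342 and Gm45250, both long noncoding RNAs, D10Wsu102e, Rbm4, a splicing regulator, and Cspp1, with Pearson's r of 0.907 to 0.916. Malat1 ranked 807 in likeness to Neat1, with r of 0.70. Among those most like Malat1 were Hnrnph1, Atf1, Rnf24 and Zcchc10, with r of 0.813 to 0.838. Neat1 had r of -0.38 with Sfpq, -0.40 with Nono and -0.30 with Pspc1, and Sfpq and Pspc1 had r of 0.47. These values describe libraries that share arms, chase times and depth, and carry no test.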

How the data were processed

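All 36 libraries of 3 degron lines were used. Per the labels and methods, total RNA was sequenced after rRNA removal as stranded paired reads of 81 bases, and the authors aligned uniquely and end to end to mm10 with STAR 2.5.2b (submitters' processing notes), allowing mismatches up to 0.06 of the read length. The UCSC annotation release, the GRAND-SLAM version and the use of strand are not given in the sources used here. The deposited tables, 1 for each line and replicate, hold read counts per gene (not normalized), the new-to-total ratio as a fraction (posterior mode, mean and 90% interval), and T-to-C conversions and their coverage of thymidines as estimated signal. Another 180 columns of per-library values were not used.

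CPM were computed from the deposited counts with the library total. Counts were tested with edgeR 4.0.16 quasi-likelihood in R 4.3.3 (TMM, filterByExpr) over the 12 libraries of a line with chase time or arm as a factor, and over all 36 libraries for differences between lines. The deposited fraction was tested on the log2 scale with limma 3.58.1 where all libraries of the fit had 100 or more reads and a ratio of 0.02 or more for the gene, and p-values were adjusted by Benjamini and Hochberg over all genes. The label at 0 min was fitted over 12 libraries as 6 group means. Pairs of genes were compared with exact two-sided sign-flip tests over 6 tables (smallest p = 0.03125) and the Neat1 to Malat1 ratio with an exact two-sided permutation test (smallest p = 0.002165). Half-lives were to be compared between genes, but label did not fall for 4 of the 5, so slopes were compared instead. DESeq2 1.42.0 was an alternative. Intervals of the deposited ratio cover counting and conversion error only.

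Libraries of the same line, time and replicate number deviated together in counts (r of 0.181 to 0.78 in all 9 line and time pairs), and the study states that the wells of a replicate were split from a single batch of cells, so the number was taken to pair them. For the ratio r was -0.0336 to 0.182. Replicates differed by more than sampling noise (chi-square per degree of freedom of 2.34 to 72.6). When tested on simulated data, in which 200 genes were given a log2 change of 1, the count fit recovered 57% for METTL3 (14459 genes), 79.5% for YTHDC1 (14279) and 97% for ZCCHC8 (13942). False calls numbered 4, 11 and 13. The simulated libraries were drawn separately, without the shared deviation of a replicate or a change over the chase, so recovery in the real libraries can differ.

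The 5 genes are named in every comparison whatever their values, together with at most 4 called genes of each list with the largest change in each line and the 5 genes most alike, of which 1 is not reported here. The members and lists were chosen with earlier results of these data known. No protein sequences were used.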

Additional observations from a re-analysis of the deposited data

Results flagged for a closer look

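The response of Neat1 to dTAG differed between the ZCCHC8 and YTHDC1 lines by 1.25 on the log2 scale, by the interaction test over all 36 libraries (SE 0.31, edgeR adjusted p = 0.0059, and 0.00113 adjusted over the 3 pairs of lines). Its read count was higher in 6 of 6 pairs of libraries in the ZCCHC8 line and in 1 of 6 in the YTHDC1 line, and the difference was 1.14 (adjusted p = 0.184) without replicate 2.

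The response of the labelled share of Neat1 at 0 min differed between the ZCCHC8 and METTL3 lines by -0.68 on the log2 scale (SE 0.125, limma adjusted p = 0.000787). Groups of 2 libraries were not examined for samples far from the others.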

How the results depend on the processing

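Most values of the 5 genes kept their direction and side of the threshold. Limits are 2 libraries for each line, arm and time, 247 reads of Neat1 in the library with the fewest Neat1 reads, and isoforms that were counted together. Values below are log2 changes of dTAG against Ctrl unless named otherwise, and the cause of a changed value was not tested.

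Since the numbers paired the count libraries, the replicate block raised genes called from 2920 to 7059 (48.2% of all genes) in the METTL3 line and from 737 to 3888 (26.9%) in the YTHDC1 line, and members called from 0 to 1 and from 0 to 2. It gave 5 members called over the chase in the YTHDC1 line (66.3% of all genes), 2, 2 and 1 in the differences METTL3-YTHDC1, ZCCHC8-YTHDC1 and ZCCHC8-METTL3 (42.2%, 32.0% and 43.1% of all genes), -0.21 for Neat1 in the YTHDC1 line, -0.59 for Nono and -0.000744 for Malat1 over the chase in the METTL3 line. In the ratio of Neat1 to Malat1, pairing by number and time turned -0.20 (YTHDC1) and 0.74 (ZCCHC8) into calls (exact sign-flip adjusted p = 0.0469 each). Beside these and the values given with the results, it changed no other call on counts of a member. For label the block changed no member's call and gave 12 genes (from 4) for YTHDC1 and 152 (from 11) for ZCCHC8 at 0 min, and 96 (from 42) for loss of label in the METTL3 line.

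With the chase libraries summed, 0 genes were called in the METTL3 and YTHDC1 lines. In the ZCCHC8 line, summed in the same way, 3828 genes (24.8% of all genes tested) and 3 members were called. DESeq2 called 1127 genes (5.83% of all genes tested) and 1 member in the YTHDC1 line. At 0 min, T-to-C conversions called 1007 genes (from 2317) in the METTL3 line and 6 in the ZCCHC8 line, the logit scale 7 and 7 in the YTHDC1 and ZCCHC8 lines, and a minimum of 50 reads 1 in the YTHDC1 line. In the ZCCHC8 line 0 members were called by the logit scale (Neat1 -2.42) and by conversions (Neat1 -0.78). Conversions reversed Pspc1 at 0 min (METTL3 0.064, YTHDC1 -0.029). For loss of label they reversed Malat1 (METTL3 0.0088, ZCCHC8 0.0062), Nono (YTHDC1 0.0073) and Pspc1 (YTHDC1 0.0054), and for pairs of slopes Malat1 against Sfpq (0.0047), Malat1 against Pspc1 (0.018) and Sfpq against Pspc1 (0.013).

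Times taken alone, chosen after seeing the data, called 1, 1 and 2 members at 0, 90 and 180 min in the ZCCHC8 line (10.3%, 16.5% and 18.1% of all genes), with Malat1 at 0.22 (0 min) and 0.33 (90 min) not past and Sfpq at -0.010 (0 min) reversed. Malat1 reversed at 0 min in the METTL3 line (-0.0097) and at 90 min in the YTHDC1 line (0.053), Pspc1 at 90 min in the METTL3 line (0.0099) and Nono at 0 min in the YTHDC1 line (0.039).

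Leaving out each replicate in turn gave 5764 to 7524 genes and 3 to 4 members called in the METTL3 line, and 1368 to 3483 genes and 0 to 3 members in the YTHDC1 line. In the ZCCHC8 line it gave 3510 to 5213 genes. Members called over the chase were 2 to 5 in the METTL3 line (30.7% to 51.1% of all genes) and 3 to 5 in the YTHDC1 line (51.8% to 60.0%). The differences METTL3-YTHDC1, ZCCHC8-YTHDC1 and ZCCHC8-METTL3 had 1 to 4, 0 to 4 and 0 to 4 members called (24.6% to 41.9%, 11.1% to 28.5% and 27.1% to 41.2% of all genes). For loss of label it gave 24 to 414, 15 to 31 and 31 to 74 genes in the METTL3, YTHDC1 and ZCCHC8 lines, and 0 to 1 members in the METTL3 line. Neat1 was at 0.47 to 0.55 (METTL3) and -0.29 to -0.14 (YTHDC1), Malat1 at 0.074 to 0.37 (METTL3) and -0.17 to 0.14 (YTHDC1, reversed without replicate 2), and Pspc1 in the METTL3 line at -0.18 to 0.10. Over the chase in the METTL3 line Nono was at -0.61 to -0.51, Malat1 at -0.24 to 0.32 (-0.24 without replicate 2) and Sfpq at -0.21 to 0.043. In the differences between lines Neat1 was at 0.57 to 0.82 (METTL3-YTHDC1), 1.14 to 1.35 (ZCCHC8-YTHDC1) and 0.53 to 0.57 (ZCCHC8-METTL3), Malat1 at 0.18 to 0.23, 0.12 to 0.56 and -0.060 to 0.33, Sfpq at -0.14 to 0.018 (METTL3-YTHDC1) and Pspc1 at -0.16 to 0.084 (ZCCHC8-YTHDC1). For loss of label, Neat1 was at -0.28 to -0.040 (METTL3) and -0.039 to 0.10 (YTHDC1), Malat1 at -0.038 to 0.030 (METTL3) and -0.090 to 0.034 (ZCCHC8), Sfpq at -0.10 to 0.018 (METTL3) and -0.065 to 0.073 (ZCCHC8), Nono at -0.041 to 0.0034, -0.043 to 0.024 and -0.014 to 0.069 in the METTL3, YTHDC1 and ZCCHC8 lines, and Pspc1 at -0.14 to 0.12 (METTL3). At 0 min the label without 1 replicate is a value with no test.

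The half-life of Neat1 label was 78.0 to 131 min under the alternatives run, within 1 SD of the mean. Comparisons of half-lives between genes, and half-lives from labelled CPM, were not run because label, or labelled reads in 3 of 6 tables, did not fall.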

Other observations

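Among the other genes for paraspeckle proteins, Rbmx moved in both measures in the ZCCHC8 line. Its read count was higher with dTAG (log2 fold change 0.39) and its labelled share at 0 min was lower (-0.61, limma adjusted p = 0.00408). It was the only gene of the 31 tested for label on that list that was called in this line, and 0 of the 31 were called in the YTHDC1 line and 9 (2 higher and 7 lower) in the METTL3 line. Over all genes tested 0.152% were called for ZCCHC8, 0.0553% for YTHDC1 and 32% for METTL3, so the count in the METTL3 line is near that of all genes.

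If the level of each RNA had been constant, the labelled share after the 4 h pulse in Ctrl would correspond to half-lives with medians of 84.9 min for Neat1, 363 min for Pspc1, 395 min for Malat1, 409 min for Sfpq and 766 min for Nono. Levels changed over the chase, so these values are an ordering of the labelled shares rather than measured half-lives.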
